A study of Mus musculus with 13 samples.

Results

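Interferon-response genes were followed across single epithelial cells of the mouse colon. The genes were taken from a list of 53 named symbols that covers the subunits of the interferon receptors, the transcription factors that act downstream of them and the genes that interferons switch on; genes of the major histocompatibility complex were left out. Of the 53, 51 were rows of the expression matrix and 2, Mx1 and Mx2, were not analysed here, so that 51 of 32285 genes in all are described. The list did not use any measured value, but it was drawn up with earlier results of these data known.

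The cells came from whole colons of germ-free C57BL/6J mice and of antibiotic-treated wild type C57BL/6J mice, and the labels give no age, number of mice, antibiotic or dose. Single cells, freed with EDTA and then Dispase, were sorted as EPCAM-positive and CD45-negative, with CD44-positive (proliferative) and CD44-negative (differentiated) cells taken in equal numbers, after the cells of each condition had been pooled. Expression was read with a droplet assay that counts the 3' ends of transcripts as unique molecular identifiers (UMI). Each condition is thus 1 pool. The germ-free libraries carry one batch label and the antibiotic libraries another, so an effect of the batch and an effect of the condition cannot be told apart. Control mice are named in the design of the study and were not analysed here.

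Interferons are secreted proteins that warn cells of viruses and microbes. Type I and type III interferons bind separate receptors but both act through a complex that holds STAT2 and IRF9 and binds a promoter element, the interferon-stimulated response element (ISRE). Type II interferon (interferon gamma) acts through a shorter element, GAS. In the gut, epithelial cells respond to type III interferon in particular, and some interferon-stimulated genes are expressed there without infection.

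The promoters show how much of the list carries that element. In the RefSeq promoters of build GRCm38.p6 (250 bases before to 50 after a gene's start), 42 of the 51 genes had an entry. The ISRE core, GAAA followed by 2 bases of any kind and a second GAAA, was searched on both strands and occurred in 20 of the 42, which is 47.6%, against 943 of all 27025 promoters, or 3.49%. The 20 were all among the 37 promoters of genes other than receptors, and none of the 5 receptor promoters held a match. The GAS letters TTCNNNGAA occurred in 13 of the 42 (30.95%), against 8.47% of all promoters. A match is a description of the letters and not a proven site. The 4 windows that follow show a match in the 4 members with the largest drop in germ-free cells among those that reached 20 CPM (UMI of a gene scaled to a common total) and whose promoter holds one. Each reads 5′ to 3′ on the strand of the gene, and capitals mark the match.
Isg15, chr4:156200869-156200902, minus strand: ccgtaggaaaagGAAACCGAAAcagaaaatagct
Oas1a, chr5:120907526-120907557, minus strand: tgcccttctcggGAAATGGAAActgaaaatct
Ddx60, chr8:61928022-61928055, plus strand: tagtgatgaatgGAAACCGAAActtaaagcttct
Ifit1, chr19:34640792-34640825, plus strand: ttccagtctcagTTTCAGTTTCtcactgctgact
In Ifit1 the match lies on the other strand, so the capitals are its reverse complement. The Isg15 and Oas1a windows hold further overlapping matches. No match was found in the promoter windows of Irf7, Oasl1 and Oasl2, whose drops were larger than that of Ifit1.

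The germ-free pool held 768 cells and 3100880 UMI, and the antibiotic pool 3415 cells and 36530277 UMI. Cell names carry a number that splits the germ-free pool into cell sets 3 and 4 (306 and 462 cells, median 1045 and 4682 UMI) and the antibiotic pool into cell sets 1, 2 and 3 (832, 1149 and 1434 cells, median 6760, 6599 and 7420 UMI). What the number stands for is not given, so the cell sets serve only to show spread within a pool. Antibiotic cell sets are not independent of each other: they shared 315 cell barcodes between sets 1 and 2, 48 between sets 1 and 3 and 501 between sets 2 and 3, while no barcode was shared with or between germ-free sets. In the pairs of sets with over 300 shared barcodes, expression profiles of cells with the same barcode correlated at a median r of 0.50 and 0.55. Mismatched pairs, in which a cell was set against the next shared barcode of the other set, correlated less closely (0.31 and 0.35). In all, 837 antibiotic cells (24.5%) are shallower copies of a barcode, and they hold 3.40% of antibiotic UMI. With 1 copy per barcode, the 166 antibiotic values of a member in a gate with at least 100 UMI changed by factors of 0.948 to 1.04.

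Levels are given as CPM, the UMI of a gene in the summed cells scaled to the same total for every pool, cell set or gate, with 95% intervals that cover counting error only. The intervals treat UMI as independent, so they are too narrow where many UMI of a gene lie in a single cell. In germ-free cell set 3, the shallowest, 3 counts amount to 7.44 CPM, so low levels there are counts of a few molecules. As each condition is 1 pool, no test was possible. A gene was called lower or higher in germ-free cells where both germ-free cell sets lay on the same side of all 3 antibiotic cell sets. Genes with at least 100 UMI in all count as measured, and those that also reach 20 CPM in the higher condition form the set for which 2-fold differences were counted. Log2 ratios are of CPM + 1, germ-free over antibiotic, which understates the change of low genes. In pooled sums, fewer responding cells and less RNA per responding cell cannot be told apart; shares of cells are given further on.

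Interferon-stimulated genes were lower in germ-free than in antibiotic epithelium, while the receptors were at like levels. Summed over the 45 members other than receptors, the level was 774 and 904 CPM in the germ-free cell sets 3 and 4, against 1366, 1417 and 1403 CPM in antibiotic cell sets 1, 2 and 3. Of 46 measured members, 30 were lower, 1 was higher and 15 had overlapping cell sets; 23.9% of all 11059 measured genes were lower and 24.8% were higher. The median log2 ratio of the measured members was -0.72, with an order-statistic interval of -1.01 to -0.38, against 0.03 over all measured genes. That interval treats members as independent, although all were read in the same pools. It describes the spread over members and not the uncertainty of the difference between conditions. Among the 26 members that reached 20 CPM, 17 were lower (24.5% of 6462 genes were) and 1 was higher (29.4% were). Of these, 7 were lower by at least 2-fold (1.95% of genes were) and none was higher by as much (1.81% were). The count of 7 became 11 without germ-free cell set 4 and 4 with the gates given equal weight. With cells thinned to 1000 UMI it was 3, of which 2 were among the 7. Among other measures that moved the same way were the 13 genes of the dissociation response, such as Fos and Jun, of which 11 were lower in germ-free cells (median log2 ratio -0.53), and the 8 colonocyte markers, of which 6 were lower (median -0.43). Of 3 measured tuft-cell markers 2 were lower and none higher, and the list summed to 2.48 and 10.0 CPM in the germ-free cell sets, against 12.6, 12.1 and 40.3 CPM in antibiotic cell sets. Enteroendocrine markers went the other way, with 22.3 and 31.1 CPM in germ-free cell sets, against 10.6, 3.89 and 11.6 CPM in antibiotic cell sets. Only 1 of these 9 markers, Chgb, was measured, and it was higher in germ-free cells. Mitochondrial genes took 18.7% of germ-free and 12.4% of antibiotic UMI. With mitochondrial genes left out of the totals, the median log2 ratio of the members was -0.62. Of 31 members that then reached 20 CPM, 10 were at least 2-fold lower. With only cells of at least 1000 UMI and at most 15% mitochondrial UMI, the median was -0.71, again with 10 of 31. The part of any of these measures in the result was not otherwise tested. Of 16 immune-cell markers none was measured. They summed to 4.96 and 2.97 CPM in germ-free and to between 1.82 and 2.42 CPM in antibiotic cell sets, with Cd3g, Cd8a and Gzmb among those at 0 UMI in both pools. The 8 epithelial markers, such as Epcam and Cdh1, summed to 7870 CPM in germ-free and 8126 CPM in antibiotic cells.

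**Figure D1:**
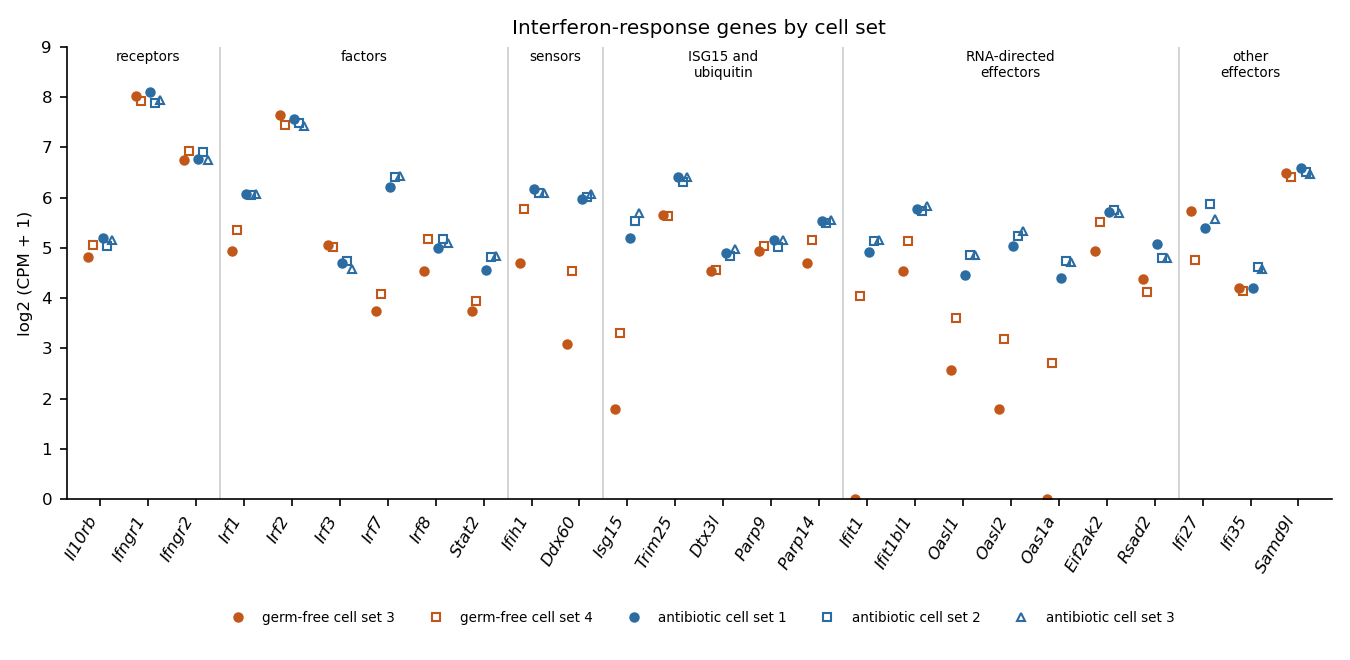
Level of the 26 interferon-response genes that reached 20 CPM, as log2 (CPM + 1), in each cell set; germ-free cell sets are orange and antibiotic cell sets blue, and vertical lines part the roles. The receptors overlap between conditions, whereas Irf7, Isg15, Oasl2 and Oas1a have both germ-free cell sets far below the antibiotic ones.

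Receptor subunits did not separate the conditions. Ifngr1, the ligand-binding chain of the interferon gamma receptor, was at 258 and 243 CPM in the germ-free cell sets, against 274, 235 and 247 CPM in antibiotic cell sets. Its partner chain Ifngr2 was at 107 and 121 CPM in germ-free cells, against 108, 119 and 106 CPM in antibiotic cells. Il10rb, the chain that the type III interferon receptor shares with receptors of the IL-10 family, was at 27.3 and 32.2 CPM in germ-free cells, against 35.5, 31.8 and 34.5 CPM in antibiotic cells. For each of these the interval of the ratio holds 1 (0.913 to 1.06 for Ifngr1). Ifnlr1, the specific chain of the type III receptor, had 8.71 CPM in germ-free and 10.3 CPM in antibiotic cells, and Ifnar1, a chain of the type I receptor, had 19.0 and 17.2 CPM; Ifnar2, its other chain, had only 9 and 49 UMI and was not measured. All 5 measured receptor genes had overlapping cell sets, with a median log2 ratio of -0.02.

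The transcription factors differed among themselves, with 4 of 7 lower. Irf7, a factor that is itself induced by interferon and amplifies type I interferon genes, was at 12.4 and 15.9 CPM in the germ-free cell sets, against 73.4, 84.6 and 85.8 CPM in antibiotic cell sets. The groups lie far apart, and the pooled level was 5.35-fold lower in germ-free cells (4.02 to 7.27). Irf1, which interferon gamma induces, was lower at 29.8 and 40.0 CPM in germ-free cells, against 66.1, 65.1 and 65.9 CPM in antibiotic cells. Stat2, the type I and III signal transducer, was lower as well, with 12.4 and 14.5 CPM in germ-free cells, against 22.5, 27.0 and 27.7 CPM in antibiotic cells. Irf9, its DNA-binding partner, was lower at 10.96 CPM in germ-free against 18.3 CPM in antibiotic cells. The remaining factors were not lower. Irf2, which competes with Irf1 for the same sites, was at 178 CPM in germ-free and 177 CPM in antibiotic cells with overlapping cell sets, and Irf8 was at 33.5 CPM in both. Irf3, the constitutive factor that sensors activate, was the only measured member that was higher, with 32.3 and 31.5 CPM in germ-free cells, against 24.8, 25.7 and 23.1 CPM in antibiotic cells, a ratio of 1.30 (1.04 to 1.60); its exons overlap those of Bcl2l12 on the opposite strand by 88 bases, and whether counting used strand is not given.

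Among the sensors of viral RNA, Ddx60, a helicase said to assist RIG-I, was at 7.44 and 22.2 CPM in the germ-free cell sets, against 61.8, 64.0 and 66.6 CPM in antibiotic cell sets. That is 3.18-fold lower in germ-free cells (2.48 to 4.16). A sizeable part of the germ-free UMI of Ddx60 lay in a single cell, as described further on, which the interval does not cover. Ifih1, which encodes the double-stranded RNA sensor MDA5, was lower by less, with 24.8 and 53.7 CPM in germ-free cells, against 71.4, 66.9 and 66.9 CPM in antibiotic cells. Ddx58 (RIG-I) was at 9.67 CPM in germ-free and 15.8 CPM in antibiotic cells, and Zbp1, a sensor of Z-form nucleic acid, was at 4.84 and 11.1 CPM; both were lower. Dhx58 (LGP2) had overlapping cell sets.

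Isg15, a ubiquitin-like protein that is attached to other proteins, showed the largest log2 ratio of the members that reached 20 CPM, -2.37. It was at 2.48 and 8.90 CPM in the germ-free cell sets, against 35.9, 45.2 and 51.0 CPM in antibiotic cell sets, and 5.68-fold lower when pooled (3.84 to 8.81). Only 25 germ-free UMI of Isg15 stand behind this. A sizeable part of them lay in a single cell, as described further on, which the interval does not cover. Of the other 7 genes around ISG15 and ubiquitin transfer, 6 were lower. Trim25, an E3 ligase for RIG-I, was at 49.6 and 48.9 CPM in germ-free cells, against 84.4, 78.1 and 84.3 CPM in antibiotic cells. Dtx3l was at 22.6 CPM in germ-free and 29.1 CPM in antibiotic cells, and Parp14, an ADP-ribosyltransferase, at 33.2 and 45.4 CPM. Parp9, which pairs with Dtx3l in a complex, had 31.6 CPM in germ-free and 33.6 CPM in antibiotic cells with overlapping cell sets; the exons of Dtx3l and Parp9 overlap by 458 bases on opposite strands. Usp18, which removes ISG15, Herc6, a mouse ISG15 ligase, and Trim30a were lower at under 20 CPM, with 1.61, 9.03 and 6.77 CPM in germ-free cells, against 4.27, 15.7 and 19.2 CPM in antibiotic cells.

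The effectors that act on RNA held 4 of the 7 members that were at least 2-fold lower. Oasl2, an oligoadenylate synthetase-like protein, was at 2.48 and 8.15 CPM in the germ-free cell sets, against 32.0, 36.8 and 39.6 CPM in antibiotic cell sets (4.99-fold lower, 3.31 to 7.90). Its neighbour on chromosome 5, Oasl1, was at 4.96 and 11.1 CPM in germ-free cells, against 20.9, 28.1 and 27.9 CPM in antibiotic cells (2.56-fold lower, 1.80 to 3.77). Oas1a, which makes the second messenger that activates RNase L, had 0 and 5.56 CPM in germ-free cells, against 20.1, 25.9 and 25.3 CPM in antibiotic cells (5.04-fold lower, 3.04 to 9.04). Of the 31-base words in the last 500 bases of Oas1a transcripts, 70.0% also occur in Oas1g, so the counts of this pair are uncertain. Oas1g, which was not on the list, was at 5.80 CPM in germ-free and 15.5 CPM in antibiotic cells.

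Ifit1, which binds viral RNA caps, had 0 and 15.6 CPM in the germ-free cell sets, against 29.2, 34.0 and 34.8 CPM in antibiotic cell sets (2.46-fold lower, 1.81 to 3.43). As with Isg15, a sizeable part of the germ-free UMI of Ifit1 lay in a single cell, which the interval does not cover. Ifit1bl1, a relative of Ifit1, was lower by less, with 22.3 and 34.1 CPM in germ-free cells, against 53.7, 52.6 and 56.0 CPM in antibiotic cells. Rsad2 (viperin), which makes a chain-terminating nucleotide, was at 19.9 and 16.3 CPM in germ-free cells, against 33.0, 27.0 and 26.8 CPM in antibiotic cells. Eif2ak2 (PKR), a kinase that stops translation, was at 29.8 and 44.5 CPM in germ-free cells, against 51.2, 53.2 and 50.6 CPM in antibiotic cells. Oas3, Ifit3 and Isg20 were lower at under 20 CPM, Cmpk2 and Oas2 overlapped, and Ifit2 and Ifit3b did not reach 100 UMI. Of the words in the tail of Ifit3, 24.0% are shared with Ifit3b, and of those in Ifit1bl1, 29.6% with Ifit1bl2.

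Among the other effectors, Samd9l, an antiviral restriction factor, stood at 89.3 and 84.5 CPM in the germ-free cell sets, against 95.3, 90.3 and 87.7 CPM in antibiotic cell sets, which overlap. Ifi27 also overlapped, with 52.1 and 25.9 CPM in germ-free cells, against 41.4, 57.6 and 46.6 CPM in antibiotic cells. Ifi35 was lower at 17.4 and 16.7 CPM in germ-free cells, against 17.4, 23.7 and 23.1 CPM in antibiotic cells, by a margin of under 0.1 CPM. Rtp4, Xaf1, Bst2 (tetherin, which holds budding virus at the cell surface) and Ifi44 were lower at under 20 CPM, with log2 ratios of -1.88, -1.82, -1.46 and -1.45. The 4 interferon-inducible GTPases were near the detection limit: Igtp and Gbp7 overlapped and Gbp2 and Gbp3 were not measured.

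Genes around the list behaved less uniformly. Of 11 ligand genes, interferons and the IL-10 family included, none was measured and 10 had no UMI in either pool. Among kinases, STATs and their regulators, 3 of 9 measured genes were lower and none higher (median log2 ratio -0.12). Among the lower ones, Stat3 was at 98.7 CPM in germ-free and 122 CPM in antibiotic cells, and Socs3, a feedback inhibitor, was at 3.55 and 6.65 CPM. Jak1 and Jak2, the receptor kinases, were at 127 and 93.5 CPM in germ-free cells, against 142 and 95.5 CPM in antibiotic cells. Of 7 measured sensing adaptors, 1 was lower (Tbk1, at 52.6 CPM in germ-free and 59.9 CPM in antibiotic cells) and 1 was higher (Tlr3, at 29.0 and 25.8 CPM). A further 22 measured interferon-stimulated genes held 10 that were lower and 2 that were higher (median -0.29). Of these, Ifi27l2b was at 131 CPM in germ-free and 224 CPM in antibiotic cells, Lgals9 at 36.8 and 65.4 CPM, Lgals3bp at 31.3 and 64.5 CPM and Ly6e at 59.3 and 63.3 CPM. Ifitm3, an entry restriction factor, was higher, at 10.6 CPM in germ-free and 3.28 CPM in antibiotic cells. Socs3 and Ifitm3 were picked for mention after their values were seen.

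To ask in which cells the members were expressed, cells were gated by markers of proximal colon (such as Cyp2c55 and Fabp2), distal colon (Hoxb13, Slc37a2), goblet cells (Muc2, Fcgbp) and crypt or cycling cells (Lgr5, Mki67). None of the gate markers is a member. The proximal gate held 120 germ-free and 940 antibiotic cells, the distal gate 134 and 447, the goblet gate 117 and 300 and the crypt gate 107 and 369, and 290 and 1359 cells were ungated. Shares of cells in a gate were not compared, as equal numbers of CD44-positive and CD44-negative cells were sorted. The median cell held 3906 UMI in the germ-free and 12933 UMI in the antibiotic proximal gate, and 3407 and 6089 UMI in the crypt gate. The 8 colonocyte markers, which played no part in the gates, summed to 6933 CPM in germ-free and 8471 CPM in antibiotic cells of the proximal gate, and to 4095 and 3966 CPM in the distal gate.

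Most members were highest in proximal-gated cells and lowest in crypt-gated cells. Of the 45 members, receptors included, with at least 100 UMI in the gated antibiotic cells, 33 had their highest level in the proximal gate and 31 their lowest in the crypt gate, against 21.7% and 18.1% of the 10429 genes with as many UMI there. In germ-free cells 26 of the 45 were highest in the proximal gate, against 19.3% of these genes, and 24 members were so in both pools, against 12.3%. Between these gates in antibiotic cells, 23 of 31 members were at least 2-fold higher in the proximal gate, on the same side in every antibiotic cell set, against 13.8% of 7439 genes; none was at least 2-fold lower, against 34.1%. The median log2 ratio of proximal over crypt was 1.36 for the members and -0.49 for all genes. Of the 23, 21 were also above the crypt gate in germ-free cells, while 94.9% of all genes called in antibiotic cells were. With 1 copy per shared barcode the count was 24 of 31.

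**Figure D2:**
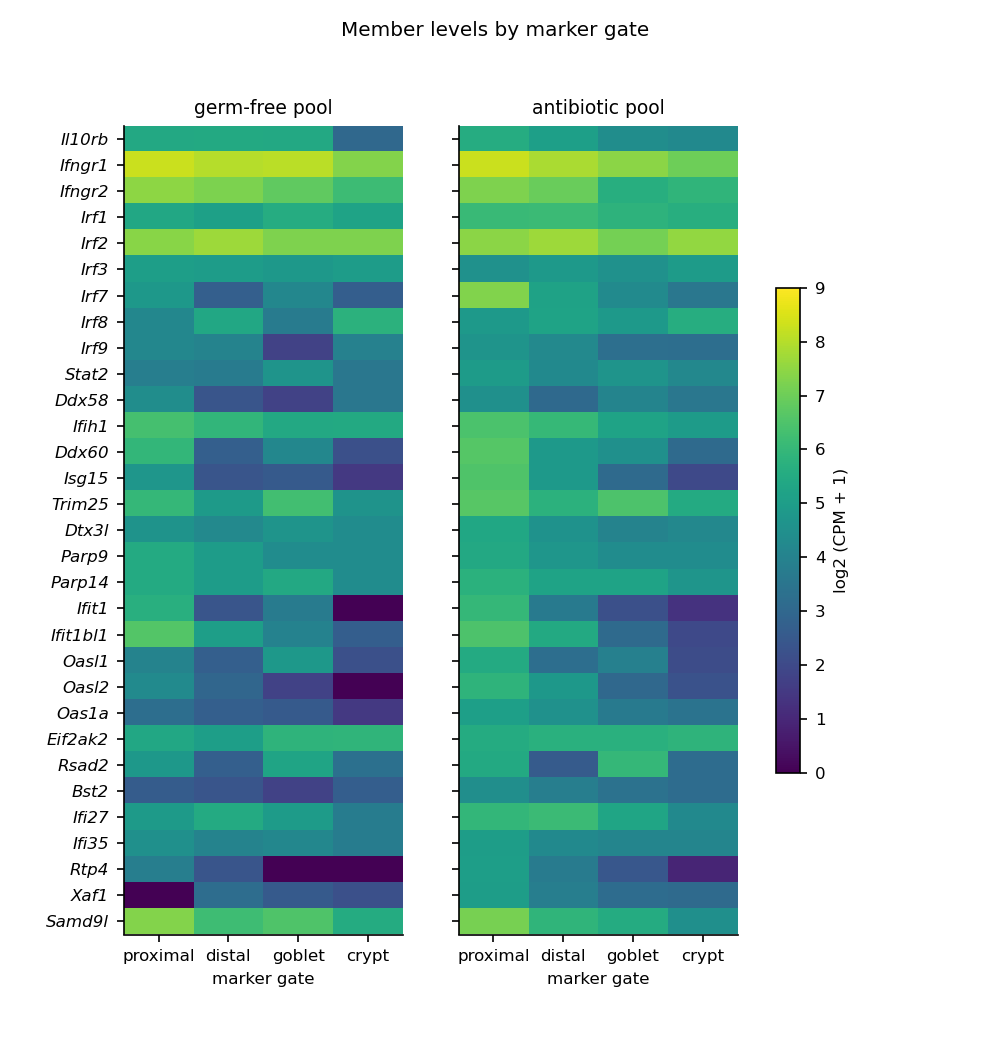
Level of 31 members as log2 (CPM + 1), by colour, in the cells of each marker gate, in the germ-free pool (left) and the antibiotic pool (right). In the antibiotic pool Irf7, Isg15, Ifit1 and Oasl2 are brightest in the proximal column, Rsad2 is brightest in the goblet column, and Irf2 and Eif2ak2 change little across columns.

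The largest fold among the 23 was that of Ifit1, with 62.6 CPM in proximal-gated and 1.48 CPM in crypt-gated antibiotic cells, a 42.2-fold difference (18.0 to 130) that rests on 5 UMI in crypt cells. Isg15 was at 89.8 CPM in proximal-gated and 2.97 CPM in crypt-gated cells, 30.3-fold higher (16.4 to 63.3). Ifit1bl1 was at 88.8 and 2.97 CPM, Irf7 at 155 and 10.98 CPM and Ddx60 at 98.1 and 7.71 CPM. Receptors shared the direction at a smaller size: Ifngr1 was at 313 CPM in proximal-gated and 128 CPM in crypt-gated cells, 2.45-fold higher (2.22 to 2.71), Ifngr2 at 151 and 58.2 CPM and Il10rb at 46.2 and 18.1 CPM. Irf2, at 171 CPM in proximal-gated and 184 CPM in crypt-gated cells, Irf3, at 22.5 and 29.7 CPM, and Eif2ak2, at 45.7 and 57.0 CPM, did not reach 2-fold. Irf8 was lower in the proximal gate, at 27.3 CPM in proximal-gated and 47.8 CPM in crypt-gated cells, a ratio of 0.572 (0.475 to 0.691). The intervals of Irf3 (0.605 to 0.958) and Eif2ak2 (0.682 to 0.946) also lay below 1. So did that of Isg20 (0.478 to 0.877), which was under 20 CPM in both gates.

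Proximal-gated cells also stood above distal-gated cells, with 11 of 32 members at least 2-fold higher, against 7.45% of genes, and none lower, against 10.8%. Irf7 was at 155 CPM in proximal-gated and 35.0 CPM in distal-gated antibiotic cells, Isg15 at 89.8 and 27.2 CPM and Ifit1 at 62.6 and 12.2 CPM. Ifi27 was at 61.3 CPM in the proximal and 69.5 CPM in the distal gate, and Irf1 at 68.4 and 68.7 CPM. Distal-gated cells in turn exceeded crypt-gated cells at least 2-fold for 10 of 22 members (8.28% of genes), with none lower (17.7% of genes). Goblet-gated cells exceeded crypt-gated cells for 4 of 17 members (5.64% of genes), with none lower (11.1% of genes). Rsad2 had its own pattern. It was at 62.0 CPM in goblet-gated, 43.1 CPM in proximal-gated, 8.01 CPM in crypt-gated and 4.93 CPM in distal-gated antibiotic cells, and at 36.8, 27.1, 9.003 and 5.54 CPM in the same gates of germ-free cells. Cmpk2, its neighbour on chromosome 12, was at 15.0 CPM in proximal-gated and 4.15 CPM in crypt-gated antibiotic cells.

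The conditions also differed within the proximal gate. Counts within gates, here and below, asked only for a 2-fold difference in pooled sums, and not for cell sets to lie apart. Of 33 members that could be counted, 10 were lower by at least 2-fold in germ-free cells, against 4.12% of genes, and none was at least 2-fold higher, against 3.65%; the median log2 ratio was -0.63 over 42 measured members and 0.06 over all genes. Irf7 was at 27.1 CPM in germ-free and 155 CPM in antibiotic proximal-gated cells, 5.71-fold lower (3.51 to 10.0). Isg15 was at 25.4 CPM in germ-free and 89.8 CPM in antibiotic cells (3.54-fold lower, 2.14 to 6.34), and Oasl2 at 18.6 and 56.4 CPM (3.03-fold lower, 1.69 to 6.10). The others of the 10 were Stat2, Oasl1, Oas1a, Bst2, Ifi27, Rtp4 and Xaf1. Germ-free levels of Bst2, Oas1a, Stat2 and Rtp4 were 5.08, 8.46, 13.5 and 13.5 CPM. The germ-free gate held 590941 UMI, so these levels rest on few molecules. Xaf1, a pro-apoptotic antagonist of XIAP, had 0 UMI in germ-free and 460 UMI in antibiotic cells of the gate, and with 3 counts set as the limit of the germ-free pool it was at least 6.14-fold lower. The same 10 members were found with 1 copy per shared barcode. The 8 proximal gate markers themselves summed to 3611 CPM in germ-free and 6515 CPM in antibiotic cells of the gate, and the part of this difference in the members' result was not tested. Nearly all the germ-free UMI came from cell set 4, as cell set 3 gave 50724 UMI to this gate.

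Of the other members, Irf1, Ddx60, Trim25 and Dtx3l were lower by under 2-fold with intervals that do not hold 1, such as Ddx60 at 60.9 CPM in germ-free and 98.1 CPM in antibiotic cells (1.61-fold lower, 1.16 to 2.31). The intervals of Samd9l and Ifngr1 hold 1. Samd9l was at 161 CPM in germ-free and 140 CPM in antibiotic cells, a ratio of 1.15 (0.927 to 1.41), and Ifngr1 at 308 and 313 CPM. The germ-free levels of Ifit1, Ifit1bl1, Ddx60 and Isg15 rest in large part on single cells. Ifit1bl1 was at 96.5 CPM in germ-free and 88.8 CPM in antibiotic cells, but 31 of its 57 germ-free UMI lay in 1 cell of 8119 UMI, and without the top cell of each pool the levels were 44.6 and 84.3 CPM. For Ifit1, at 50.8 CPM in germ-free and 62.6 CPM in antibiotic cells, they were 25.7 and 60.6 CPM without it, and for Isg15 they were 8.58 and 85.1 CPM. Ddx60 had 18 of its 36 germ-free UMI in another cell, and was at 30.9 and 95.8 CPM without the top cells. Irf7 did not depend on such a cell: its 16 germ-free UMI were spread over 14 cells, and its 2281 antibiotic UMI over 527 cells.

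**Figure D3:**
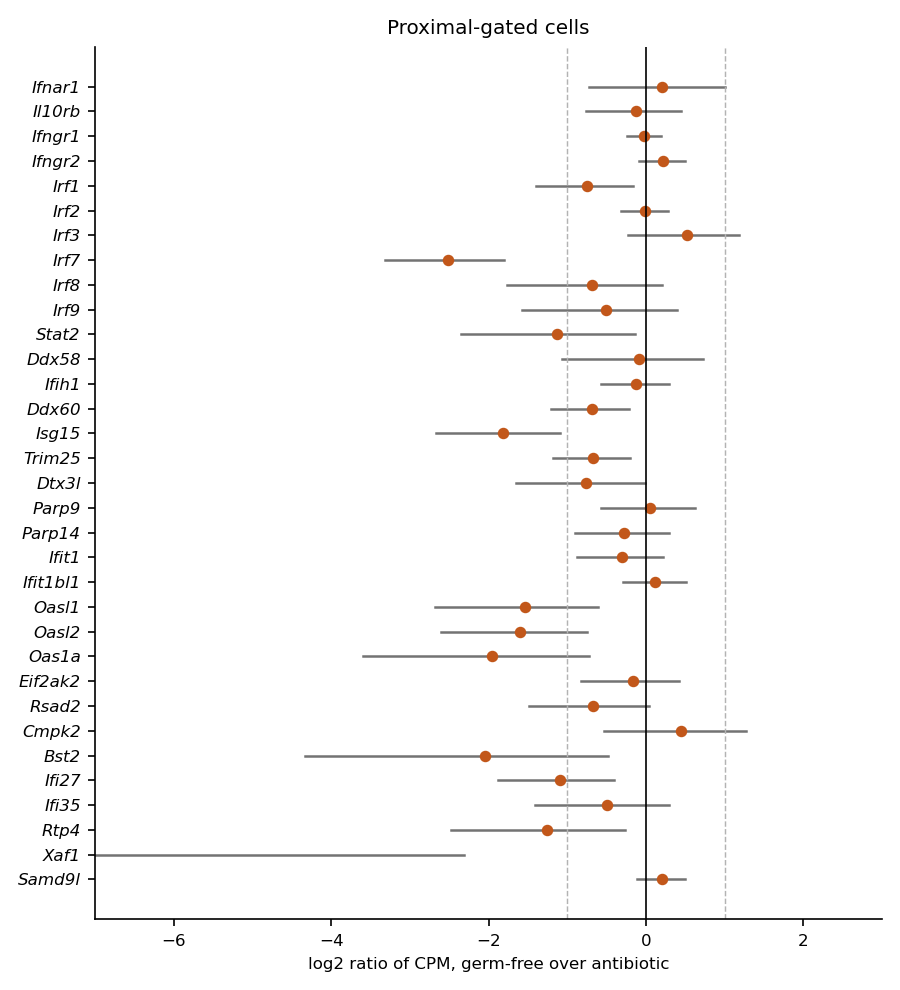
Log2 ratio of CPM, germ-free over antibiotic, in proximal-gated cells for 33 members; points are ratios and lines their 95% counting intervals, which may run past the left edge. Irf7, Isg15, Oasl2 and Xaf1 lie left of the 2-fold line at -1 (Xaf1 has no point, since it had 0 germ-free UMI), whereas the receptors, Irf2 and Samd9l lie near 0.

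In the distal gate 7 of 22 members were lower by at least 2-fold in germ-free cells, against 2.96% of genes, and none was at least 2-fold higher, against 1.34%. They were Irf1, Irf7, Ddx60, Isg15, Trim30a, Oasl2 and Oas1a. Irf7 was at 5.54 CPM in germ-free and 35.0 CPM in antibiotic cells (6.32-fold lower, 2.44 to 23.4), and Isg15 at 4.16 and 27.2 CPM (6.55-fold lower, 2.21 to 32.0). These germ-free levels rest on few cells: Irf7 had 4 UMI in 4 cells, and Isg15 had 3 UMI, all in 1 cell, without which it was at 0. In antibiotic cells 44 of the 199 UMI of Isg15 lay in 1 cell, and its level without that cell was 21.3 CPM. In the goblet gate, none of 11 members was at least 2-fold lower (5.06% of genes were) and 1 was at least 2-fold higher (2.26% of genes were): Ifngr2, at 110 CPM in germ-free and 49.2 CPM in antibiotic cells, a ratio of 2.24 (1.56 to 3.18). The goblet gate markers summed to 39167 CPM in germ-free and 16371 CPM in antibiotic cells of that gate, and the part of this in the result was not tested. Samd9l, at 90.7 CPM in germ-free and 45.6 CPM in antibiotic goblet-gated cells, lay just inside 2-fold and passed it with 1 copy per shared barcode. None of 9 members reached 2-fold in the crypt gate, lower (7.03% of genes) or higher (3.01%). The members that differed most elsewhere had too few UMI to be counted in the goblet and crypt gates: Irf7 had 7 germ-free UMI in goblet-gated cells, at 17.2 CPM in germ-free and 18.8 CPM in antibiotic cells. Among ungated cells 10 of 25 members were lower by at least 2-fold in germ-free cells (3.47% of genes) and none was higher (4.49%). Whether the gates differ from each other in these ratios was not tested.

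Shares of cells were compared after thinning every cell to the same number of UMI, which leaves out shallower cells. At 1000 UMI, with 101 germ-free and 889 antibiotic proximal-gated cells, Irf7 was found in 2.97% of germ-free (0.617 to 8.44%) and 10.7% of antibiotic cells (8.73 to 12.9%), and Isg15 in 1.98% and 4.39%. Deeper thinning of both pools was added after seeing the data. At 3000 UMI the proximal gate kept 68 germ-free and 765 antibiotic cells, with median depths of 6915 and 15980 UMI before thinning. Irf7 was found in 7.35% of germ-free cells (exact binomial interval 2.43 to 16.3%), against 28.6% of antibiotic cells (25.4 to 32.0%). In crypt-gated antibiotic cells, with a median depth of 8760 UMI, Irf7 was found in 0.738%, far below the proximal gate. In germ-free crypt-gated cells it was found in 3.39% of 59 cells (0.413 to 11.7%), an interval that overlaps that of germ-free proximal-gated cells. With so few cells, the overlap does not test whether these gates differ. In summed germ-free cells Irf7 was at 27.1 CPM in the proximal and 5.40 CPM in the crypt gate. Isg15 was found in 4.41% of germ-free and 9.67% of antibiotic proximal-gated cells, with overlapping intervals (0.919 to 12.4% and 7.67 to 11.99%), against 1.11% of crypt-gated antibiotic cells. Samd9l was found in 38.2% of germ-free and 32.7% of antibiotic proximal-gated cells, and Ifngr1 in 60.3% and 59.3%. Without thinning the share is bound to depth, since Irf7 was then found in 14 of 120 germ-free and 527 of 940 antibiotic cells of the gate.

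In antibiotic cells the number of members found in a cell was also highest in the proximal gate. At 1000 UMI, cells with at least 5 members made up 2.97% of 101 germ-free and 6.97% of 889 antibiotic proximal-gated cells, and 0 of 99 and 0 of 336 crypt-gated cells, which allows shares of up to 3.03% and 0.893% at a limit of 3 counts, or 3.66% and 1.09% by the upper bound of the exact binomial interval. Of the 45 members other than receptors, a proximal-gated cell thinned to 3000 UMI held 3 on average in the germ-free pool and 4.12 in the antibiotic pool, and a crypt-gated cell 1.66 and 1.86. Cells with at least 5 of these members made up 13.2% of germ-free (6.23 to 23.6%) and 31.4% of antibiotic proximal-gated cells (28.1 to 34.8%). These intervals cover the counting of cells within 1 pool each and do not test the conditions. Of the 68 germ-free cells, 67 were in cell set 4. The share with at least 5 members was 34.3, 32.3 and 28.8% in antibiotic cell sets 1, 2 and 3, and 31.7% in all with 1 copy per shared barcode. In the distal gate it was 6.74% in germ-free and 12.7% in antibiotic cells, in the goblet gate 16% and 9.18%, and in the crypt gate 3.39 and 4.80%, with overlapping intervals in each. Among germ-free cells the goblet share of 16% (7.17 to 29.1%) thus lay above the proximal share of 13.2%, with intervals that overlap. The highest number was 21 members in a germ-free and 24 in an antibiotic cell, both proximal-gated. Before thinning, the 2 germ-free cells with the most members each held 30 of the 45, with 94 and 142 UMI of these genes out of 9076 and 8119 in all. The antibiotic cell with the most held 42, in 45110 UMI.

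**Figure D4:**
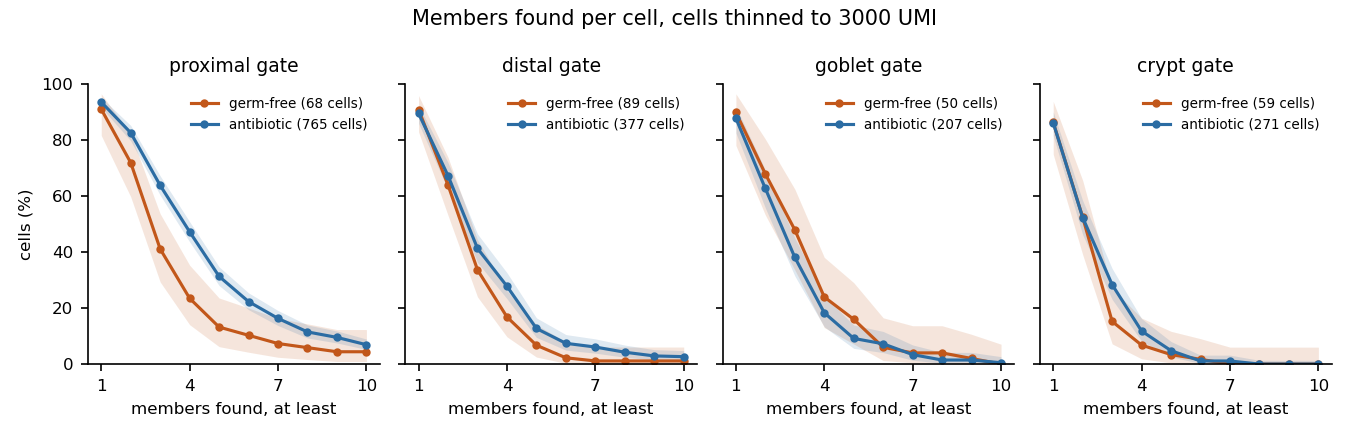
Share of cells (%) in which at least a given number of 45 members other than receptors was found, for cells thinned to 3000 UMI, by gate, with germ-free cells in orange and antibiotic cells in blue; shading is the exact binomial interval. In the proximal gate the antibiotic curve lies above the germ-free curve, with 31.4% against 13.2% at 5 members, and in the crypt gate both fall to under 5% at that number.

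Members were found in the same cells far more often than pairs of genes in general. In 2315 antibiotic cells thinned to 3000 UMI, 38 members were found in at least 2% of cells, and 195 of their 703 pairs (27.7%) were found together in at least 2 times the number of cells expected from their separate shares, against 1.94% of 40044553 pairs of all genes. Pairs of 2 non-receptor members passed in 193 of 528 cases (36.6%), pairs with a receptor in 2 of 175 (1.14%), and pairs of a member with any other gene in 1.6%. The ratio cannot exceed the inverse of the share of cells that hold the commoner gene of a pair. Ifngr1, in 46.4% of cells, could thus hardly pass. Ifnar1, Ifnlr1 and Il10rb, in 5.01, 3.50 and 8.42% of cells, were less limited and passed with 0, 1 and 1 of 37 partners. Pairs of all genes were not matched to the members for these shares. As members are higher in proximal-gated cells, the count was repeated within the 765 proximal-gated cells, where 187 of 794 pairs (23.6%) passed, against 2.77% of all pairs. Ifngr1, in 59.3% of these cells, could not pass there. With 1 copy per shared barcode 27.6% of member pairs passed.

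**Figure D5:**
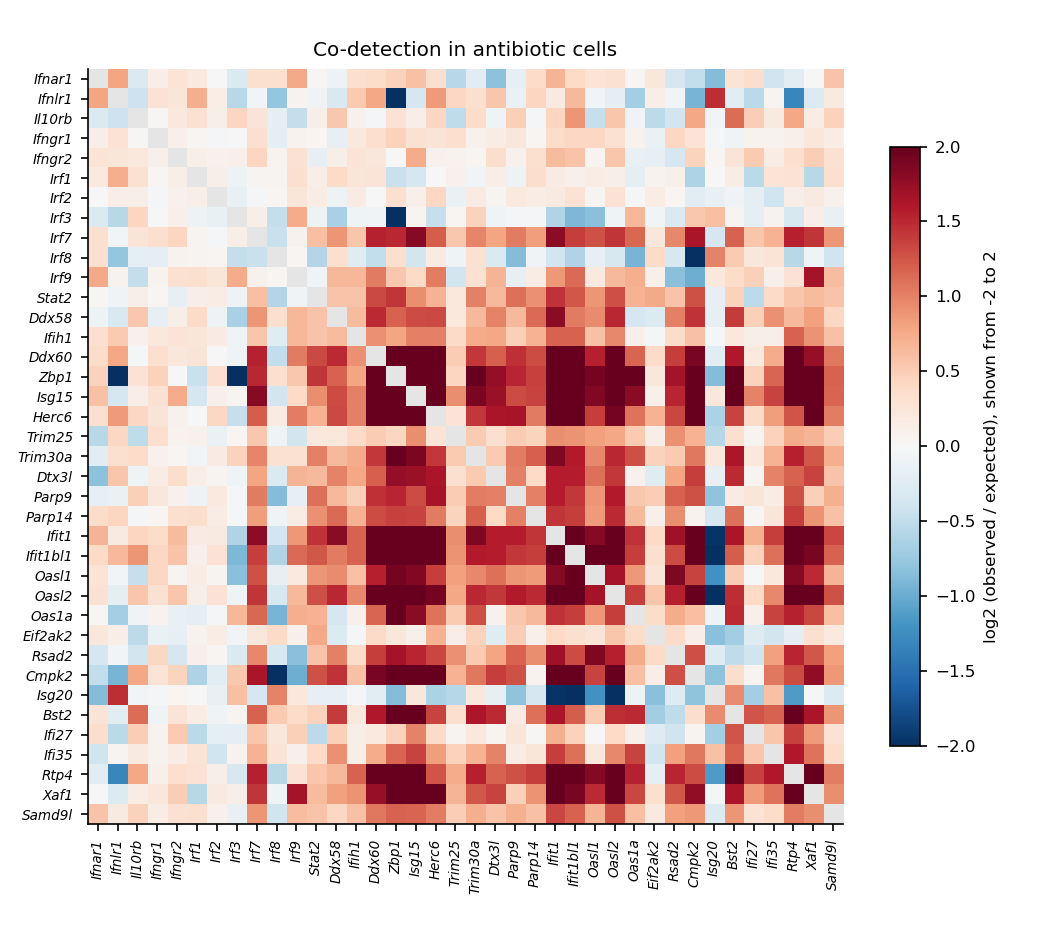
Observed over expected number of antibiotic cells with both genes, as log2 from -2 to 2 by colour, for 38 members in the order of their roles. Red blocks link Ddx60, Zbp1, Isg15, Herc6, the Ifit and Oasl genes, Rtp4 and Xaf1, whereas most cells of the receptors and of Irf1, Irf2 and Irf3 are pale, and Isg20 is blue against the Ifit genes.

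The closest pairs were Zbp1 with Isg15, found together in 21 cells where 2.71 were expected (7.74 times, 4.79 to 11.8), Isg15 with Rtp4, in 24 cells where 3.31 were expected (7.25 times), and Isg15 with Ifit1, in 40 cells where 5.75 were expected (6.96 times; 11.1, 4.92 and 6.71 times in antibiotic cell sets 1, 2 and 3). Ifit1bl1 passed with 24 of its 37 partners, Ifit1 with 23, and Ddx60, Herc6, Isg15, Rtp4 and Zbp1 with 22 each. Irf7 passed with 14, among them Isg15 at 3.55 times (2.66 to 4.63). The factors Irf1, Irf2, Irf3 and Irf8, the kinase Eif2ak2 and the ligase Trim25 passed with none, and Samd9l with 8. Irf2, found in 38.1% of cells, was limited in the same way as Ifngr1. Isg20, an exonuclease chosen here after its values were seen, was found with Ifit1bl1 in 1 cell where 5.70 were expected (0.175 times, 0.00444 to 0.977), and with Isg15 in 4 cells where 3.41 were expected. Isg15 was also the most unevenly spread member, with a variance of 4.18 times its mean over proximal-gated cells, which is above 99.88% of the genes found in 2 to 25% of these cells; the median of those genes was 1.07.

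The genes whose detection went with the number of members per cell, taken as those with the highest value in the lowest of the 3 antibiotic cell sets, were ranked over all 2315 cells and within the proximal gate. Among the first 10, leaving out 1 gene of the MHC class I complex, Krt20, Tmigd1 and Saa1 led over all cells, with correlations of 0.31, 0.30 and 0.29 in their lowest cell set. Within the 765 proximal-gated cells Lgals9 led at 0.28, 0.35 and 0.35 in antibiotic cell sets 1, 2 and 3, and the genes after it included Rnf213, Saa1, Tmigd1, Sp100, Apob, Ctss, Ifi27l2b and Apol9a. These correlations over cells of the same libraries are weak, share the depth of thinning and are given as a description only.

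By position in mm10 (GENCODE vM21), several members sit side by side: Ifit1, Ifit2, Ifit3, Ifit3b and Ifit1bl1 on chromosome 19, Oasl1 and Oasl2 (chromosome 5, 114923240 to 114937915 and 114896936 to 114912234), Oas2 and Oas3 on chromosome 5, Rsad2 and Cmpk2 on chromosome 12, and Gbp2, Gbp3 and Gbp7 on chromosome 3. Irf7 lies at 141262706 to 141266481 on chromosome 7, where 45 bases of its exons overlap Phrf1 on the opposite strand, and Isg15 at 156199424 to 156200818 on chromosome 4. Of these neighbours, Oasl1 and Oasl2 were both lower by at least 2-fold in germ-free cells. Rsad2 was lower while Cmpk2 had overlapping cell sets. The intervals of their folds, antibiotic over germ-free, overlap (1.27 to 2.27 for Rsad2 and 0.787 to 1.85 for Cmpk2). The different calls thus do not show that this pair differs.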

How the data were processed

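The values are natural log values, ln of 1 plus the UMI per 10000 UMI of a cell, as deposited by the authors for 4183 cells; per the submitters' processing notes Cell Ranger 7.0.0, kallisto, bustools and mm10 were used, in roles not given in the sources used here. Whole UMI counts were recovered from the deposited values, where all 9481333 non-zero values came out whole within 0.01. All deposited cells were used and no doublet caller was run. UMI were summed by condition, cell set and marker gate. A gate took a cell whose highest mean marker z was at least 0.5, led the next by 0.25 and had UMI of at least 2 markers; 317 cells lay within 0.1 of a limit. With 1 pool per condition there was no test; intervals are exact Poisson, binomial or conditional binomial and cover counting error only. Gene members and lists were chosen with earlier results of these data known. Members that reached 100 UMI and 20 CPM are named in full, lists around them by counts and up to 4 genes of highest CPM, and other genes by the lowest of 3 correlations with the number of members per cell. Alternatives are given in the closing section. Scripts ran in Python 3.11.15 with SciPy 1.17.1 for the intervals; tables were handled with pandas 2.3.3.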

Additional observations from a re-analysis of the deposited data

Results flagged for a closer look

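The goblet gate gave ratios on the other side from those in other gates for 2 genes; the differences between gates were not tested. Il10rb was 2.04 times as high in germ-free as in antibiotic goblet-gated cells, from 17 and 51 UMI, with both germ-free cell sets above all antibiotic cell sets, whereas in the crypt gate, from 4 and 61 UMI, both lay below. Oasl1 was 1.92 times as high in germ-free as in antibiotic goblet-gated cells, from 11 and 35 UMI, whereas both germ-free cell sets lay below the antibiotic ones in the proximal gate, from 9 and 655 UMI, and in the distal gate, from 4 and 62 UMI. These rest on few germ-free molecules.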

How the results depend on the processing

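No paired analysis was possible because each condition is 1 pool and no test was made. The median log2 ratio of the members, -0.72, ranged from -1.18 (without germ-free cell set 4) to -0.70 when 1 cell set was left out, and from -0.77 to -0.48 under the other alternatives. The 7 members lower by at least 2-fold became 7 to 11 when 1 cell set was left out, with 11 without germ-free cell set 4, whose removal leaves 306 cells. The count was 3 with cells thinned to 1000 UMI, where 17 members reached the limit and 2 of the 3 were among the 7. It was 4 with the gates given equal weight and 15 with a filter of 30 UMI and 5 CPM. It was 10 with totals without mitochondrial genes, 7 of them among the main 7. With cells of at least 1000 UMI and at most 15% mitochondrial UMI it was also 10, with 6 among the main 7. None was higher under any of these. With equal weights, a lower filter or other totals the members counted differ by construction; otherwise the cause was not tested. The 23 members higher in the proximal than in the crypt gate became 22 to 25 of 31 to 33, and 32 of 44 with the lower filter. The share of co-detected pairs stayed between 25.7% and 33.8% over all antibiotic cells. The shared barcodes and the single deep germ-free cells were dealt with by alternatives chosen after seeing the data: 7 members with 1 copy per barcode, 9 without all shared barcodes and 8 without the cell with most member UMI in each condition. The germ-free pool, at 3100880 UMI, limits every comparison of low genes.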
